A study of Mus musculus with 12 samples.

Results

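The cluster of miR-322, miR-503, miR-351, miR-542 and miR-450 is a group of microRNA (miRNA) precursors on the mouse X chromosome. Its 8 members here are the mature miRNAs mmu-miR-322-5p, mmu-miR-322-3p, mmu-miR-503-5p, mmu-miR-351-5p, mmu-miR-450a-5p, mmu-miR-450b-5p, mmu-miR-542-3p and mmu-miR-542-5p, taken by name and written below without the species prefix from the 1549 features of the small-RNA count table. All 8 had counts and all 8 passed the filter on low counts. The study sequenced small RNA from mouse embryonic stem cells (ESC) and germ cells to profile androgenetic haploid ESC, which carry a single chromosome set of paternal origin. The haploid lines were A129-2 (2 libraries), A129-6 (3 libraries) and A129-17 (2 libraries). The comparators were R1, a diploid ESC line (2 libraries), and round spermatids, the haploid cells that follow meiosis in the testis (RS, 3 libraries). The labels named no genetic change or drug treatment that separated the groups. The ESC were grown with leukaemia inhibitory factor and the kinase inhibitors PD0325901 and CHIR99021 and were collected on a cell sorter. RS came from 129Sv males and were sorted after Hoechst staining. R1 was the only diploid line, so diploidy and the identity of that line cannot be told apart. The labels call replicates independently sorted but name no culture or animal behind them. The spread that enters the p-values may thus be technical.

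A miRNA precursor is a hairpin that is cut into a duplex, and either arm, 5p or 3p, can be loaded into an Argonaute protein to repress messenger RNAs that pair with its seed. Precursors that lie close together are often cut from a shared transcript, while the level of each mature arm also depends on its own processing and decay. miR-322 (miR-424 in human) and miR-503 are known to restrain the cell cycle during muscle differentiation, where they target the phosphatase Cdc25a. Mouse ESC are known for another cluster, that of miR-290, which is abundant while the cells are pluripotent.

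The 8 sequences are shown because the seeds separate the members into families and because their base composition differs widely. They are RefSeq sequences (GRCm38.p6), written 5′ to 3′, with the seed, bases 2 to 8, in capitals.

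miR-322-5p: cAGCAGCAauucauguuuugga

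miR-322-3p: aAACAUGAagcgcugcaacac

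miR-503-5p: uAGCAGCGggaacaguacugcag

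miR-351-5p: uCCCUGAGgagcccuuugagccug

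miR-450a-5p: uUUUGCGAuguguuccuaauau

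miR-450b-5p: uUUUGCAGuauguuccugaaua

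miR-542-3p: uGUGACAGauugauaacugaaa

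miR-542-5p: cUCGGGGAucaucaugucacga

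miR-16-5p: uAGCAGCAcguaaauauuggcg

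miR-125b-5p: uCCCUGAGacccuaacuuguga

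miR-322-5p has the same seed as miR-16-5p, the best known cell-cycle miRNA of the miR-15/16 family, and miR-503-5p matches that seed over bases 2 to 7. miR-351-5p has the seed of miR-125b-5p, which is encoded on other chromosomes. The seeds of miR-322-3p, miR-450a-5p, miR-450b-5p and both miR-542 arms match neither family nor one another. The mature miRNAs range in GC content from 31.8% in miR-450a-5p, miR-450b-5p and miR-542-3p to 62.5% in miR-351-5p. miR-322-5p has 40.9%, miR-322-3p 47.6%, miR-542-5p 54.5% and miR-503-5p 56.5%.

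In the GENCODE vM21 annotation of GRCm38, 7 precursor genes lie on the minus strand at chrX:53047997-53054349, a span of 6353 bases. In the direction of transcription their order is Mir322, Mir503, Mir351, Mir542, Mir450-2, Mir450-1 and Mir450b. Each is annotated as a miRNA gene of its own. The noncoding gene C430049B03Rik ends 696 bases upstream of Mir322, and the long noncoding RNA gene Gm28730 lies between Mir351 and Mir542. miR-322-5p maps to chrX:53054306-53054327 and miR-351-5p to chrX:53053315-53053338. miR-542-3p maps to chrX:53049415-53049436 and miR-450b-5p to chrX:53048044-53048065. Mature miR-450a-5p is identical from Mir450-1 and Mir450-2, so its counts cannot be assigned to either.

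Total counts were 3709786 to 9102467 in the haploid libraries, 7632174 and 9176080 in R1, and 155232 to 243714 in RS. Levels below are CPM, counts scaled to a common library total. In RS a single count is worth several CPM, and the 3 libraries together give a floor of 5.30 CPM for a miRNA with no count, set at 3 counts and covering counting error only. Summed over each list, the defining markers followed the labels. A list of 8 pluripotency miRNAs summed to 77074 to 139682 CPM in haploid libraries and 193186 to 193580 CPM in R1, against 57.4 to 2570 CPM in RS. The list leaves out other arms of the miR-290 cluster, some higher and some lower in the haploid lines than in R1. Its sum therefore does not rank the haploid lines and R1 by the level of that cluster. A list of 6 germ-cell miRNAs summed to 1692 to 6825 CPM in haploid libraries and 1077 to 1124 CPM in R1, against 264761 to 355764 CPM in RS. Of these 6, 5 were lower in the haploid lines than in RS. The other, miR-470-5p, was higher in the haploid lines (log2 difference 1.19, edgeR adjusted p = 0.00984). RS also held markers of other cell types: 8 blood and endothelial markers summed to 1456 to 14849 CPM there, and both miR-202 arms, known from Sertoli cells, to 90.0 to 142 CPM, and their part in the RS values was not tested. Replicate 1 of A129-2 stood apart from its partner: it had the fewest counts of the 9 ESC libraries, and its 11 mesenchymal marker miRNAs summed to 27105 CPM, against 7022 CPM in replicate 2. In bulk libraries, fewer cells that contain a miRNA and less of it per cell cannot be told apart.

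The cluster was present in every group but was made of different miRNAs. Summed over the 8 members its mean level was 1958 ± 812 CPM for A129-2, 908 ± 245 CPM for A129-6 and 829 ± 272 CPM for A129-17 (SD, with 2, 3 and 2 libraries). R1 had a sum of 1668 ± 16.5 CPM over its 2 libraries, and RS 299 ± 26.9 CPM over 3. In CPM every RS library was below every ESC library, and A129-6 and A129-17 lay below R1. That order against R1 depends on the scaling: with TMM factors over all 12 libraries the sum was 2361, 1370 and 1546 CPM in A129-2, A129-6 and A129-17, against 1272 CPM in R1. miR-503-5p and miR-351-5p made up 86.8% to 96.6% of the cluster's counts in the 7 haploid libraries, 7.38% and 8.55% in R1 and 8.70% to 22.7% in RS. miR-450a-5p, miR-450b-5p and miR-542-3p made up 1.45% to 6.76% in haploid libraries, 82.5% and 84.5% in R1 and 59.1% to 85.5% in RS. No haploid library overlapped R1 or RS in either share. The RS shares rest on only 44 to 69 cluster counts per library.

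**Figure D1:**
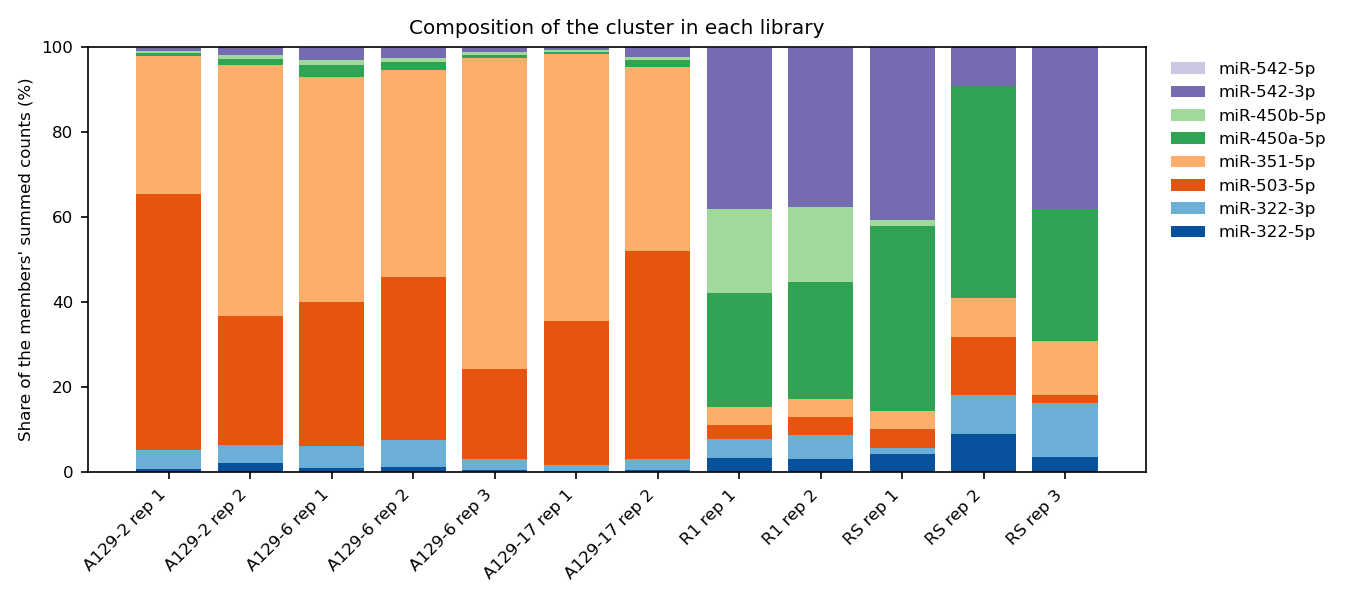
Share of each member in the summed counts of the 8 cluster members, in percent, for each library, with the haploid lines at the left, then R1 and RS (rep, replicate). miR-503-5p and miR-351-5p fill 86.8% or more of every haploid bar, while miR-450a-5p, miR-450b-5p and miR-542-3p together fill 59.1% or more of every R1 and RS bar.

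The first comparison asked how the haploid lines differ from diploid ESC. miR-503-5p and miR-351-5p were 7.80-fold and 9.17-fold higher in the haploid lines than in R1, while miR-450a-5p, miR-450b-5p and miR-542-3p were 29.6-fold, 42.3-fold and 34.5-fold lower. Both arms of miR-322 were lower by a smaller amount, and miR-542-5p did not pass the test. In edgeR's quasi-likelihood test with Benjamini-Hochberg adjustment over 757 features, 7 of the 8 members had an adjusted p below 0.05, against 70.5% of all features. Higher were 2 members, against 35.3% of all features, and lower were 5, also against 35.3%. These counts over 8 members were not tested against the background, and no result is drawn from them. What follows describes the direction and size for each member. The median log2 difference over all features was 0.33 and that of the 8 members -1.73. Log2 differences are haploid lines, weighted equally, minus R1.

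miR-503-5p, a miRNA known to target cyclins and Cdc25a, had 1524 and 420 CPM in A129-2, 286, 452 and 148 CPM in A129-6, and 345 and 312 CPM in A129-17. R1 had 52.3 and 70.6 CPM. Every haploid library was above both R1 libraries, with A129-2 replicate 1 far above the rest. The log2 difference was 2.96 (SE 0.40, edgeR adjusted p = 8.36e-06). The passenger arm, miR-503-3p, was higher too, at 27.6 ± 3.71, 14.1 ± 7.47 and 8.93 ± 3.79 CPM in A129-2, A129-6 and A129-17, against 4.53 ± 0.0832 CPM in R1 (SD). Its log2 difference was 1.86 (SE 0.46, edgeR adjusted p = 0.00211).

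miR-351-5p carries the miR-125 seed and is known in mouse from muscle progenitor cells. It had 822 and 815 CPM in A129-2, 448, 572 and 512 CPM in A129-6, and 642 and 274 CPM in A129-17. Both R1 libraries had fewer, 71.7 and 71.1 CPM, and no haploid library overlapped them. The log2 difference was 3.20 (SE 0.42, edgeR adjusted p = 6.51e-06). Its other arm, miR-351-3p, had 473 counts over the haploid libraries and 9 over R1, a log2 difference of 4.36 (SE 0.61, edgeR adjusted p = 1.16e-05).

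miR-322-5p, the cluster's member with the miR-16 seed, had 19.7 and 30.0 CPM in A129-2, 8.60, 14.8 and 4.39 CPM in A129-6, and 2.90 and 3.93 CPM in A129-17. R1 had 56.7 and 52.2 CPM, above every haploid library. The log2 difference was -2.43 (SE 0.34, edgeR adjusted p = 1.32e-05). miR-322-3p, cut from the same hairpin, had 112 and 60.3 CPM in A129-2, 44.0, 75.6 and 17.4 CPM in A129-6, and 14.7 and 15.3 CPM in A129-17, against 76.3 and 91.9 CPM in R1. Here A129-2 replicate 1 exceeded both R1 libraries, so the groups overlapped. Its log2 difference was -1.03 (SE 0.32, edgeR adjusted p = 0.00961). This call was lost without R1 replicate 2 (adjusted p = 0.0952) and under 4 other settings, the GC correction described below among them.

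miR-450a-5p and miR-450b-5p are the most distal members from the start of the cluster. miR-450a-5p had 19.7 and 20.8 CPM in A129-2, 23.9, 22.9 and 4.81 CPM in A129-6, and 5.37 and 11.6 CPM in A129-17, against 451 and 454 CPM in R1. Its relative miR-450b-5p had 9.70 and 11.6 CPM in A129-2, 8.74, 9.38 and 5.36 CPM in A129-6, and 3.77 and 3.21 CPM in A129-17, against 331 and 295.2 CPM in R1. Neither overlapped between haploid libraries and R1. The log2 difference was -4.89 for miR-450a-5p (SE 0.33, edgeR adjusted p = 4.89e-09) and -5.40 for miR-450b-5p (SE 0.27, edgeR adjusted p = 2.13e-10). The opposite arm miR-450b-3p moved much less: it had 8.65 ± 0.0376, 12.3 ± 6.38 and 5.47 ± 0.344 CPM in A129-2, A129-6 and A129-17, against 14.2 ± 0.420 CPM in R1 (SD). Its log2 difference of -0.66 (SE 0.37) did not pass (edgeR adjusted p = 0.123). The remaining arms, miR-450a-1-3p and miR-450a-2-3p, had 0 and 2 counts over all haploid libraries and 20 and 0 over R1 and were not tested.

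miR-542-3p, known in human cells to target survivin, a protein of cell division, had 21.0 and 24.8 CPM in A129-2, 24.6, 27.8 and 7.28 CPM in A129-6, and 5.66 and 15.7 CPM in A129-17. R1 had 638 and 617 CPM, the highest level of any member in R1. The log2 difference was -5.11 (SE 0.32, edgeR adjusted p = 2.48e-09). Its partner arm miR-542-5p was scarce everywhere, with 3.77 and 1.43 CPM in A129-2, 2.08, 3.82 and 1.24 CPM in A129-6, 2.32 and 0 CPM in A129-17, and 2.88 and 3.81 CPM in R1. These ranges overlapped, and the log2 difference of -0.67 (SE 0.78) did not pass (edgeR adjusted p = 0.444). It passed only without A129-17 replicate 1 (-2.89, adjusted p = 0.0136), which leaves the library with 0 counts to stand for that line.

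**Figure D2:**
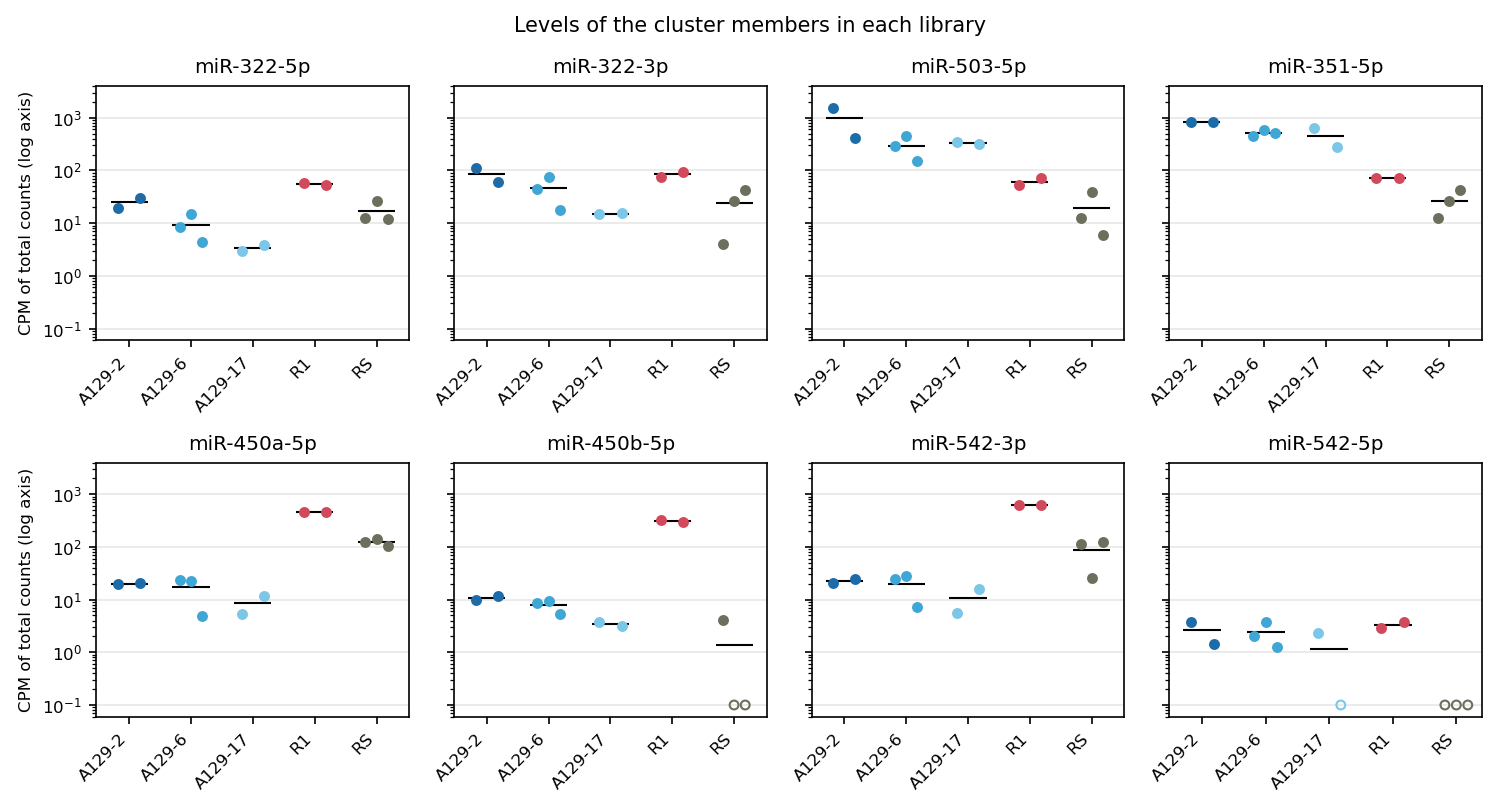
CPM of total counts on a log axis for each member in each library, by group, with a black line at the group mean. Open circles at the foot of a panel are libraries with 0 counts. miR-503-5p and miR-351-5p are highest in the haploid lines, and miR-450a-5p, miR-450b-5p and miR-542-3p in R1.

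The ratio of arms from the same hairpin needs no scaling between libraries. The log2 ratio of miR-322-5p to miR-322-3p was -2.06 ± 0.51 in the 7 haploid libraries, -0.62 ± 0.27 in the 2 R1 libraries and -0.12 ± 1.41 in the 3 RS libraries (SD). In an exact two-sided permutation test, haploid libraries against R1 gave p = 0.0556, the smallest that 7 against 2 libraries allow, and an adjusted p of 0.0741 over 8 such tests. Against RS the exact permutation p was 0.0333 (adjusted 0.0741). These tests treat libraries as independent, although the 7 haploid libraries come from 3 lines and R1 is a single line. The log2 ratio of miR-542-3p to miR-542-5p was 3.44 ± 1.98 in haploid libraries and 7.54 ± 0.31 in R1, with an exact permutation p of 0.111. In A129-17 replicate 2 this ratio was 7.47, from 88 counts against 0, so it rests on the 0.5 added to each count. The other haploid libraries ran from 1.26 to 4.07, below both R1 libraries (7.76 and 7.32). The log2 ratio of miR-503-5p to miR-322-5p, from neighbouring hairpins, was 5.46 ± 1.05 in haploid libraries, 0.16 ± 0.39 in R1 and -0.07 ± 0.64 in RS. That of miR-351-5p to miR-322-5p was 5.97 ± 1.03, 0.39 ± 0.08 and 0.53 ± 0.92. Neither ratio overlapped between haploid libraries and R1 or RS, yet none of the 8 exact permutation tests passed after adjustment. The smallest adjusted p was 0.0667, for both of these ratios against RS.

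Place in the cluster and direction went together only in part. The miR-322 hairpin, first in the cluster, was lower in the haploid lines, the next hairpins, miR-503 and miR-351, were higher in both arms, and miR-542-3p and the 5p arms of the miR-450 hairpins beyond them were lower. Arms of a single hairpin also differed: miR-542-3p and miR-542-5p had log2 differences of -5.11 and -0.67, and miR-450b-5p and miR-450b-3p of -5.40 and -0.66.

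**Figure D3:**
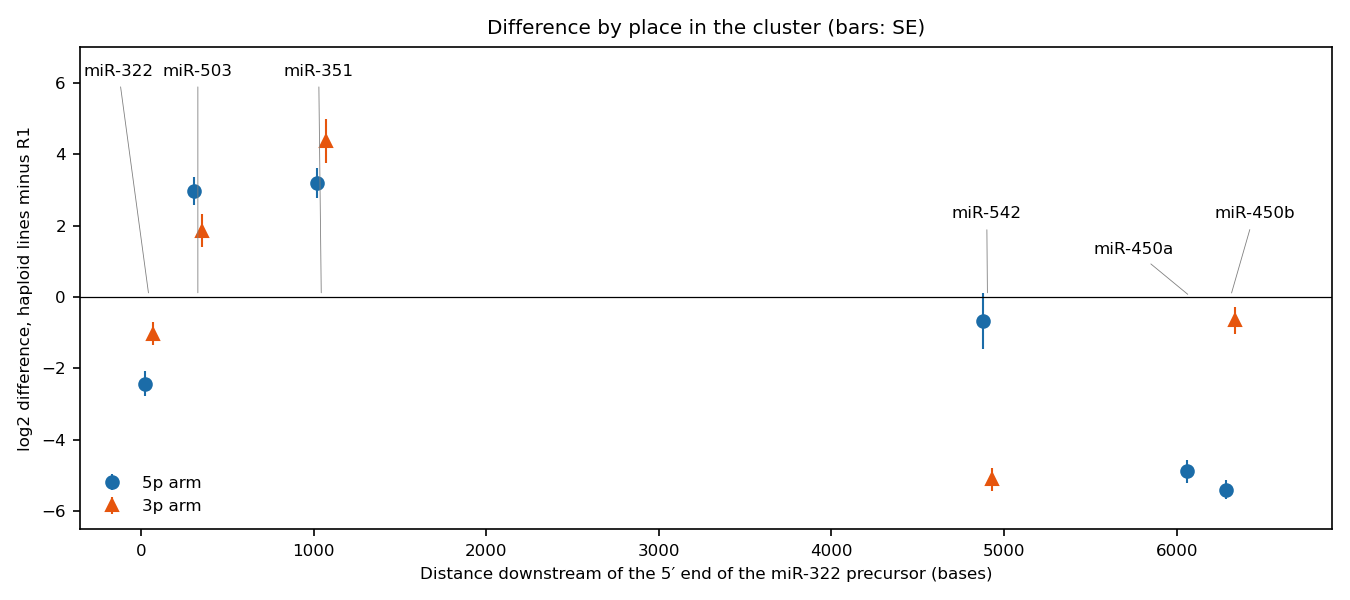
Log2 difference, haploid lines minus R1, with SE bars, for the 11 tested arms of the cluster by distance in bases from the 5′ end of the miR-322 precursor. miR-450a-5p is drawn midway between its 2 source hairpins. The arms of miR-503 and miR-351 lie above 0, and arms before and after them lie below it.

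GC content moved with the differences, within the cluster and over the whole table. Over the 8 members the log2 difference and GC content had a Pearson r of 0.97 and a Spearman rho of 0.98, and over the 609 tested features with a RefSeq sequence the values were 0.52 and 0.54. These correlations are across miRNAs measured in the same 9 libraries and are given as a description. Features of up to 35% GC had a median log2 difference of -3.18 (n = 39), those over 35 to 45% of -2.42 (n = 141), and those over 45 to 55% of -0.22 (n = 243). Features over 55 to 65% GC had a median of 1.76 (n = 129). After a correction for GC content fitted within each library, the differences of the extreme members were smaller but kept their sign. miR-503-5p was at 2.01 (SE 0.36, edgeR adjusted p = 0.000276) and miR-351-5p at 1.67 (SE 0.36, adjusted p = 0.00120). miR-450a-5p was at -2.23 (SE 0.29, edgeR adjusted p = 1.56e-05), miR-450b-5p at -2.72 (SE 0.24, adjusted p = 6.27e-07) and miR-542-3p at -2.45 (SE 0.26, adjusted p = 3.42e-06). miR-322-5p remained lower at -0.95 (SE 0.32, edgeR adjusted p = 0.0193), and miR-322-3p, at -0.44 (SE 0.32), no longer passed (adjusted p = 0.239). In A129-2 taken alone, miR-322-5p was at 0.26 minus R1 with the correction (adjusted p = 0.617), so its direction turned there. miR-450b-3p changed sign and passed at 1.41 (SE 0.38, edgeR adjusted p = 0.00534). Over the 11 tested arms, differences and GC content had a Pearson r of 0.75 and a Spearman rho of 0.83 with the correction, against 0.93 and 0.92 without it, so the trend within the cluster was still present. What it stems from was not tested.

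**Figure D4:**
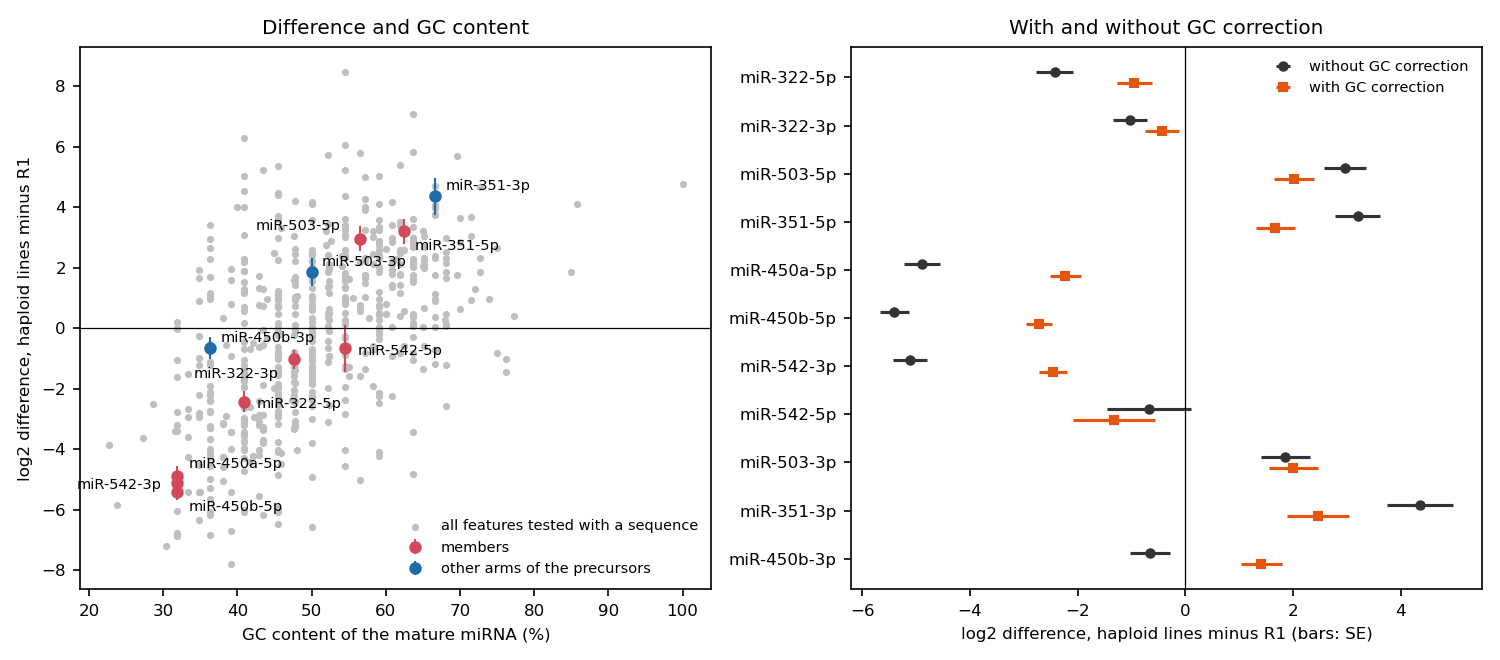
Left, log2 difference, haploid lines minus R1, against the GC content of the mature miRNA in percent, for cluster members (red), other arms of the same hairpins (blue) and all tested features with a sequence (grey), with SE bars on the cluster's arms. Right, the cluster's differences without (circles) and with (squares) a GC correction: miR-503-5p and miR-351-5p stay above 0 and miR-450a-5p, miR-450b-5p and miR-542-3p below it, all closer to 0 than before.

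The 3 haploid lines shared the direction of the members that changed most. Against R1, A129-2 had 6 members called (59.8% of all features), of which 2 were higher (31%) and 4 lower (28.8%). A129-6 also had 6 called (67.1% of all features), with 2 higher (35%) and 4 lower (32.1%), and A129-17 had 7 (66.2%), with 2 higher (34.6%) and 5 lower (31.6%). The line comparisons share the R1 libraries. miR-503-5p had log2 differences of 3.76, 2.32 and 2.81 in A129-2, A129-6 and A129-17 (SE 0.40 to 0.45), and miR-351-5p of 3.45, 3.02 and 3.12 (SE 0.43 to 0.46). miR-450a-5p had -4.54, -4.71 and -5.41, miR-450b-5p -4.90, -5.22 and -6.09, and miR-542-3p -4.81, -4.96 and -5.56. The edgeR adjusted p of these 5 members was 0.000138 or less in every line. miR-322-5p passed in all lines at -1.14, -2.51 and -3.63, although in A129-2 narrowly (SE 0.46, edgeR adjusted p = 0.0458). Without A129-2 replicate 1 that difference was -0.69 (adjusted p = 0.286), without R1 replicate 1 it was -1.05 (adjusted p = 0.175), without R1 replicate 2 it was -1.24 (adjusted p = 0.111), and without A129-6 replicate 1 it was -1.10 (adjusted p = 0.0635). The call was also lost with upper-quartile scaling, total-count scaling, the stricter filter and all 12 libraries in the fit (adjusted p = 0.0894, 0.0952, 0.0961 and 0.664). miR-322-3p passed in A129-17 only (-2.11, SE 0.44, edgeR adjusted p = 0.000659). In A129-6 it was at -0.86 (adjusted p = 0.0534), which passed without A129-2 replicate 2, A129-6 replicate 2 or either A129-17 library (adjusted p = 0.0129 to 0.0410). In A129-2 it was at -0.11 (adjusted p = 0.836).

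**Figure D5:**
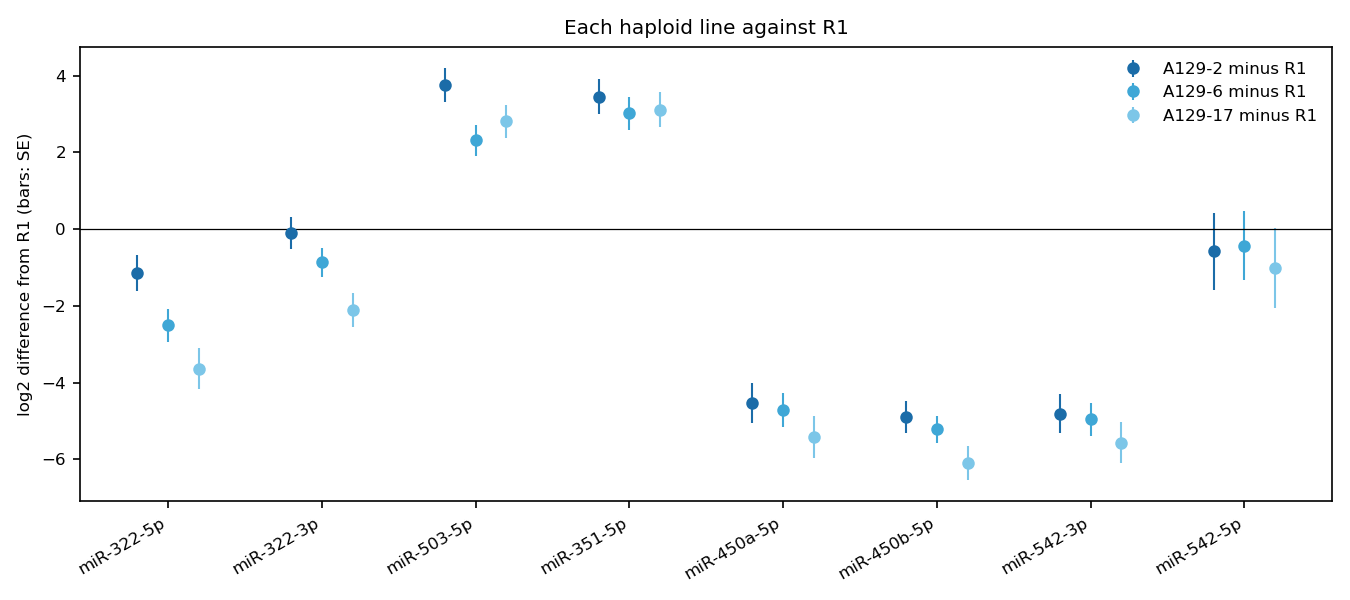
Log2 difference of each haploid line from R1, with SE bars, for the 8 members. The lines lie close together for miR-351-5p, at 3.02 to 3.45, and spread out for miR-322-5p, at -1.14 in A129-2, -2.51 in A129-6 and -3.63 in A129-17.

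Among the lines, the miR-322 hairpin varied most. An edgeR F-test over the 3 lines called 2 members, miR-322-5p (adjusted p = 0.0394) and miR-322-3p (adjusted p = 0.0458), against 3.83% of all features. miR-322-5p averaged 3.41 ± 0.72 CPM in A129-17, 9.26 ± 5.23 CPM in A129-6 and 24.8 ± 7.29 CPM in A129-2 (SD), and no library of a line overlapped another line. miR-322-3p averaged 15.0 ± 0.487 CPM in A129-17, 45.7 ± 29.1 CPM in A129-6 and 86.4 ± 36.8 CPM in A129-2. Its A129-6 and A129-2 ranges overlapped, and every A129-17 library was below both. Both calls were lost without A129-2 replicate 2 (adjusted p = 0.158 for miR-322-5p and 0.0983 for miR-322-3p), without A129-6 replicate 1 (0.0781 and 0.116) and without A129-6 replicate 2 (both 0.0834). The miR-322-3p call was also lost without A129-2 replicate 1, A129-17 replicate 1 or A129-17 replicate 2 (adjusted p = 0.132, 0.0871 and 0.105). miR-503-5p missed the threshold in this F-test (edgeR adjusted p = 0.0659). It passed with no filter (0.00302), with DESeq2 (0.0110), and without A129-2 replicate 2, A129-17 replicate 1 or R1 replicate 1 (adjusted p = 0.0432 to 0.0450).

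Pair by pair, A129-17 against A129-2 had log2 differences of -2.49 for miR-322-5p (SE 0.52) and -2.0 for miR-322-3p (SE 0.44), both with an edgeR adjusted p of 0.0523. In that pair edgeR called 0 features (0%), although 181 of 757 (23.9%) had an unadjusted p below 0.05, among them 4 members. DESeq2 called 72 of the 478 features it adjusted, among them 3 members. miR-322-5p passed without A129-2 replicate 1 (-2.97, adjusted p = 0.0117), A129-6 replicate 3 (adjusted p = 0.0108) or R1 replicate 1 (adjusted p = 0.0418). miR-322-3p passed without A129-6 replicate 3 or R1 replicate 1, at the same adjusted p values. A129-17 against A129-6 gave 0 calls as well (0%), with 123 features (16.2%) at an unadjusted p below 0.05, 3 of them members. DESeq2 called 29 of the 551 features it adjusted there, 1 of them a member. There miR-322-3p was at -1.24 (SE 0.40, edgeR adjusted p = 0.174) and passed without A129-6 replicate 3 (-1.47, adjusted p = 0.0337). A129-6 against A129-2 had 2.38% of features called, and 1 member, miR-503-5p, fell (-1.45, SE 0.36, edgeR adjusted p = 0.0494), against 0.528% of features called lower. Without A129-2 replicate 1 this difference was -0.64 (adjusted p = 0.593), and without A129-6 replicate 1, 2 or 3 the adjusted p was 0.153, 0.0989 and 0.119.

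The summed mesenchymal markers and miR-503-5p were both higher in replicate 1 of A129-2 than in replicate 2, but most of the cluster was not. Of the other members, miR-322-3p (112 and 60.3 CPM) and miR-542-5p (3.77 and 1.43 CPM) were also higher in replicate 1. miR-351-5p was nearly level (822 and 815 CPM), and miR-322-5p, miR-450a-5p, miR-450b-5p and miR-542-3p were lower in replicate 1. Most of the marker sum was miR-143-3p, at 24966 and 6100 CPM. Replicate 1, with 1524 CPM of miR-503-5p, had 1159 CPM of miR-214-3p, a miRNA of fibroblasts and other connective tissue cells, and replicate 2, with 420 CPM, had 292.8 CPM. The 11 markers together ranged from 5987 to 12502 CPM in A129-6 and A129-17 libraries, 15388 to 17113 CPM in R1 and 23661 to 68244 CPM in RS, and none was at 0 in any group. Their part in the miR-503-5p difference was not tested. Against R1 the haploid lines had 4 of these 11 markers higher and 4 lower, near the 35.3% of all features called in each direction. The largest contributor, miR-143-3p, had a log2 difference of -0.30 (SE 0.31, edgeR adjusted p = 0.389). Among the 4 higher markers, miR-214-3p had a log2 difference of 5.04 (SE 0.47, edgeR adjusted p = 1.69e-07). The markers thus did not move together between the haploid lines and R1.

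The comparison with RS sets stem cells beside haploid germ cells of the testis. miR-503-5p and miR-351-5p were higher in haploid ESC than in RS, and miR-450a-5p was lower. In the haploid lines 5 of 8 members differed from RS in edgeR's test over 806 features, against 65.4% of all features, with 4 higher (44.5% of all features) and 1 lower (20.8%). In R1 all 7 members that had a count in RS were higher than in RS and 0 were lower, against 53% of all features called with 33.6% called higher and 19.4% lower. Not all of these R1 calls held under every alternative, as given below. The median log2 difference over all features was 2.79 for the haploid lines and 2.04 for R1, and it depends on the scaling. Over the alternatives it ran from 0.072 to 3.49 for the haploid lines and from 0.19 to 3.18 for R1, lowest for both with the ESC libraries thinned to the depth of RS and highest without RS replicate 2.

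miR-503-5p had 12.3, 38.7 and 6.00 CPM in RS, from 3, 6 and 1 counts, and miR-351-5p had 12.3, 25.8 and 42.0 CPM, from 3, 4 and 7 counts. All ESC libraries, whose values stand above, were higher. The log2 difference from RS was 6.33 for miR-503-5p in the haploid lines (SE 0.54, edgeR adjusted p = 4.96e-10) and 2.53 in R1 (SE 0.58, edgeR adjusted p = 0.000692). For miR-351-5p it was 6.30 in the haploid lines (SE 0.54, edgeR adjusted p = 5.70e-10) and 2.24 in R1 (SE 0.57, edgeR adjusted p = 0.00172). With the GC correction the R1 differences were 0.32 for miR-503-5p (adjusted p = 0.729) and -0.39 for miR-351-5p (adjusted p = 0.628), and both miRNAs still passed in the haploid lines. The size of the haploid differences depended on the processing. Over the 23 alternatives they went down to 2.39 for miR-503-5p and 1.30 for miR-351-5p.

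miR-450a-5p was the most abundant member in RS, with 123, 142 and 102 CPM from 30, 22 and 17 counts. RS lay above every haploid library and below both R1 libraries. The log2 difference was -1.39 for the haploid lines minus RS (SE 0.37, edgeR adjusted p = 0.00236) and 2.64 for R1 minus RS (SE 0.47, edgeR adjusted p = 4.31e-05). With the GC correction the haploid difference was -0.61 and did not pass (adjusted p = 0.146). miR-542-3p followed the same order, with 115, 25.8 and 126 CPM in RS from 28, 4 and 21 counts, but RS replicate 2 overlapped the haploid libraries. Its difference from RS was -0.76 in the haploid lines (SE 0.45, edgeR adjusted p = 0.138) and 3.48 in R1 (SE 0.56, edgeR adjusted p = 1.09e-05). Under 9 of 23 alternatives the haploid difference passed. It did so without A129-2 replicate 2, A129-17 replicate 2 or RS replicate 2 (-1.04 to -1.20, adjusted p = 0.0183 to 0.0350), with the stricter filter, DESeq2 or RLE scaling (-0.98, -1.15 and -1.16), and with upper-quartile scaling, total-count scaling or thinning to the depth of RS (-2.37, -2.41 and -2.58). With the GC correction it was at 0.0432 and did not pass (adjusted p = 0.947).

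miR-450b-5p parted from miR-450a-5p in RS, where it had a single count in replicate 1 and none in the others. Its pooled level was 4.26 times higher in haploid libraries than in RS (95% counting interval 0.759 to 169), and 176 times higher in R1 than in RS (95% counting interval 31.6 to 6961). The edgeR call of miR-450b-5p in the haploid lines (adjusted p = 0.00113) therefore rests on 1 count, and the interval spans equality. miR-322-5p had 12.3, 25.8 and 12.0 CPM in RS, within the range of A129-2 and A129-6, and miR-322-3p had 4.10, 25.8 and 42.0 CPM. miR-322-5p was 0.95 higher in the haploid lines on the log2 scale (SE 0.56), which did not pass (edgeR adjusted p = 0.140), although it did without A129-2 replicate 1 (1.28, adjusted p = 0.0349). The sign of that haploid difference depended on the scaling: it turned under 2 alternatives, to -0.81 with total-count scaling. In R1 miR-322-5p was higher than in RS by 2.51 (SE 0.60, edgeR adjusted p = 0.00109). miR-322-3p was higher by 2.51 in the haploid lines (SE 0.52, edgeR adjusted p = 0.000186). That call was lost with scaling to total counts (0.80, adjusted p = 0.282), upper-quartile scaling (0.93, adjusted p = 0.128) or the GC correction (0.51, adjusted p = 0.464). In R1 miR-322-3p was higher than in RS by 2.69 (SE 0.58, edgeR adjusted p = 0.000401). Over the alternatives the R1 differences went down to 1.06 for miR-322-5p and 0.81 for miR-322-3p. Each of these R1 calls was lost under 1 alternative (adjusted p = 0.130 and 0.283). miR-542-5p had 0 counts in RS, and its ESC levels are below the RS floor of 5.30 CPM, so no fold is given.

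The other arms of the hairpins had 0 counts in RS. Against the floor over the RS libraries, haploid libraries were at least 3.03-fold higher for miR-503-3p, at least 1.94-fold for miR-351-3p and at least 1.76-fold for miR-450b-3p. R1 was at least 2.68-fold higher for miR-450b-3p.

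In the order of group means, miR-322-5p ran from R1 (54.5 CPM) through A129-2, RS and A129-6 to A129-17 (3.41 CPM), and A129-2 overlapped RS and RS overlapped A129-6. miR-322-3p ran from A129-2 and R1, which overlapped, through A129-6 and RS to A129-17. For miR-503-5p and miR-351-5p the haploid lines came first, then R1, then RS, and A129-6 and A129-17 overlapped each other for both. miR-450a-5p and miR-542-3p ran from R1 through RS to A129-2, A129-6 and A129-17, and neighbouring haploid lines overlapped. miR-450b-5p ran from R1 to A129-2, A129-6, A129-17 and RS, with overlap between A129-17 and RS. By rank of mean level among all 1549 features, miR-503-5p stood at 71 in A129-2, 127 in A129-6 and 105 in A129-17, against 254 in R1 and 346 in RS. miR-542-3p stood at 348, 341 and 387 in those lines, against 98 in R1 and 219 in RS.

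Other miRNAs with the seeds of the cluster are encoded on autosomes. Of the miR-15/16 list, 6 of 11 names were in the table, and 0 were higher and 5 lower in the haploid lines than in R1, against 35.3% of all features in each direction. One of these 6, miR-497b, has another seed in RefSeq and lies antisense to miR-497a. miR-16-5p averaged 121 ± 16.6, 67.8 ± 32.6 and 28.7 ± 9.75 CPM in A129-2, A129-6 and A129-17, against 1139 ± 65.1 CPM in R1, with a log2 difference of -4.07 (SE 0.28, edgeR adjusted p = 5.44e-09). miR-15a-5p (-3.97, SE 0.43), miR-195a-5p (-4.01, SE 0.38) and miR-497a-5p (-2.34, SE 0.44) fell too, with adjusted p values of 8.89e-07, 1.90e-07 and 0.000220. miR-15b-5p did not pass (0.18, SE 0.28, edgeR adjusted p = 0.573). Haploid lines also had 5 of these 6 lower than RS, against 20.8% of all features. miR-503-5p, which shares all but the last seed base, was higher than in R1.

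Both miRNAs with the seed of miR-351-5p rose with it in the haploid lines. miR-125a-5p averaged 579 ± 1.85, 801 ± 98.6 and 735 ± 77.3 CPM in A129-2, A129-6 and A129-17, against 169 ± 14.6 CPM in R1, a log2 difference of 2.21 (SE 0.30, edgeR adjusted p = 1.00e-05). miR-125b-5p averaged 1066 ± 852, 624 ± 157 and 560 ± 134 CPM, against 64.1 ± 0.762 CPM in R1, a difference of 3.57 (SE 0.36, edgeR adjusted p = 4.59e-07). Against RS, miR-125a-5p was higher in the haploid lines by 3.11 and miR-125b-5p by 1.62, on either side of the all-feature median of 2.79. Seed sharing is a description of sequence, and no target was measured.

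Other X-linked miRNAs did not all go one way. Of 27 tested from a list of 32, 14 were higher and 7 lower in the haploid lines than in R1, against 35.3% of all features in each direction, with a median log2 difference of 1.04 beside 0.33 over all features. The 3 most abundant were all higher: miR-672-5p by 2.63 (SE 0.27, edgeR adjusted p = 5.67e-07), miR-532-5p by 2.44 (SE 0.25, edgeR adjusted p = 5.08e-07) and miR-361-3p by 1.08 (SE 0.32, edgeR adjusted p = 0.00768). Among the haploid lines the F-test called 1 of the 27. In the muscle list, included because the cluster is known from muscle differentiation, 5 of 6 tested miRNAs were higher in the haploid lines than in R1 and 1 was lower, against 35.3% of all features in each direction. Their summed level was nevertheless 216 to 402 CPM in haploid libraries, against 692 and 694 CPM in R1 and 973 to 3029 CPM in RS, since the lower member, miR-499-5p, made up most of the sum in R1. It was at 667 ± 3.38 CPM there, against group means of 76.0, 52.7 and 32.5 CPM in A129-2, A129-6 and A129-17 (log2 difference -3.60, SE 0.27, edgeR adjusted p = 1.94e-08).

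Over the 5 group means, the miRNA whose profile was most like that of miR-322-5p was miR-7b-5p, with a root mean square difference of 0.17 in mean-centred log2 CPM among 428 candidates. It was followed by miR-15b-3p (0.44), miR-3535 (0.48), miR-374b-5p (0.53) and miR-374c-3p (0.53). For miR-542-3p the nearest was miR-7a-5p (0.25), followed by miR-16-1-3p (0.36), miR-96-5p (0.45), miR-181c-3p (0.48) and miR-101b-3p (0.49).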

How the data were processed

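Small RNA of 12 libraries in 5 groups was measured. The values the authors deposited were raw counts per feature, whole numbers that sum to a different total in each library. Per the submitters' processing notes, Bowtie 0.12.9 and DESeq2 were used. No genome build, miRBase release or treatment of multiply matching reads is named in these sources, so a mature miRNA encoded at several places is given as a single value. All 12 columns were matched to samples by title.

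Counts were filtered with filterByExpr (at least 10 counts, and 15 in total). TMM-scaled counts were tested by the quasi-likelihood F-test of edgeR 4.0.16 in R 4.3.3, with Benjamini-Hochberg adjustment over all features, and called at 0.05. Comparisons among ESC used a fit of their 9 libraries, and those with RS a fit of all 12. The haploid lines weighed equally. Adjusted p-values are edgeR's unless DESeq2 1.42.0 is named, and tests are two-sided. Ratios within a library used a pseudocount of 0.5 and an exact permutation test. The GC correction fitted a loess curve (span 0.75) per library to the GC content of RefSeq mature sequences, held for 609 of the 757 tested features (80.4%). The code was tested on simulated data. Count-based intervals are exact at 95% and cover counting error only, since PCR reads are not independent molecules.

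All 8 members, the other arms and the 2 like-pattern rankings are named, as are list members with a mean of at least 10 CPM in the miR-15/16 list and the 3 most abundant of the X-linked list. Also named are miR-143-3p, miR-214-3p, miR-499-5p and miR-470-5p, which were picked after their values were seen. The members and lists were chosen with earlier results of these data known. Alternatives covered scaling, filters, DESeq2, a replicate block, GC content, the libraries fitted, thinning of ESC libraries to RS depth and each library left out.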

Additional observations from a re-analysis of the deposited data

Results flagged for a closer look

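miR-503-5p in A129-2 replicate 1, at 1524 CPM, lay far from the other 6 haploid libraries, which ranged from 148 to 452 CPM. It exceeded Dixon's limit for 7 values, among 8 such sets of values examined, and chance gives about 1 such case in 20 sets. The same library had the highest sum of mesenchymal markers among the ESC libraries, at 27105 CPM, and the part of those markers in its miR-503-5p level was not tested.

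The haploid lines differed in both arms of miR-322, with an edgeR F-test adjusted p of 0.0394 for miR-322-5p and 0.0458 for miR-322-3p, and the level was lowest in A129-17 for both. Of 19 alternatives, 6 lost the miR-322-5p call and 9 the miR-322-3p call. A129-6 had less miR-503-5p than A129-2 (edgeR adjusted p = 0.0494), and without A129-2 replicate 1 the adjusted p was 0.593.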

How the results depend on the processing

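The directions of miR-503-5p, miR-351-5p, miR-450a-5p, miR-450b-5p, miR-542-3p and miR-322-5p in the haploid lines against R1, and their calls, held under all 20 alternatives. The miR-322-3p call was lost with a stricter filter (adjusted p = 0.0585), the GC correction (0.239), all 12 libraries in the fit (0.740) and counts summed per line (0.188).

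Signs turned in 13 cases. Fitting all 12 libraries, miR-542-5p was at 0.17 in the haploid lines, 0.22 in A129-2 and 0.42 in A129-6 minus R1. In A129-2 minus R1, miR-322-5p was at 0.26 with the GC correction, and miR-322-3p at 0.46 with it, 0.14 with upper-quartile and 0.0361 with total-count scaling, 0.19 with the stricter filter and 0.70 with all libraries fitted. In haploid lines minus RS, miR-322-5p was at -0.65 with upper-quartile and -0.81 with total-count scaling, and miR-542-3p at 0.0432 with the GC correction, which put miR-351-5p at -0.39 in R1 minus RS. The cause was not tested.

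Among the lines, the count of 2 members was 0 with total-count scaling, the stricter filter or all libraries fitted, and 0 to 3 with a library left out. For A129-6 against A129-2 (1 member), it was 0 with total-count scaling, the stricter filter, the GC correction or all libraries, 2 with DESeq2, and 0 to 1 with a library left out. For A129-17 against A129-2 (0), it was 2 with RLE scaling, the miR-290 cluster left out, no filter or the GC correction, 1 with upper-quartile scaling, 3 with DESeq2, and 0 to 2 with a library left out. For A129-17 against A129-6 (0), it was 1 with DESeq2 and 0 to 1 with a library left out. Calls over all features also varied across the alternatives, from 0 to 90 among the lines. They ran from 0 to 42, 0 to 72 and 0 to 40 for these pairs in the same order. Where a line or R1 was left with 1 library, that library was assumed to vary like the other groups. Against RS, the GC correction left 3 members called in the haploid lines and 3 in R1, against 358 and 343 of 651 features.

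Replicate numbers did not pair the libraries: deviations of same-numbered libraries had correlations of -0.405 to 0.203. With the replicate number as a block, members called numbered 0 for A129-6 against A129-2, 2 for A129-17 against A129-2 and 1 for A129-17 against A129-6. The same fits called 25, 70 and 34 of 757 features. Crossing the A129-2 numbers, an alternative chosen after seeing the data, gave 488 calls against R1 over all features, against 472 with the numbers as given and 453 without a block.

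The summed member level was 6235, 3242, 3465 and 3314 CPM in A129-2, A129-6, A129-17 and R1 with the miR-290 cluster out of the total. With TMM scaling over all libraries it was 2361, 1370, 1546, 1272 and 136 CPM in A129-2, A129-6, A129-17, R1 and RS. With TMM scaling over the ESC libraries alone, added after seeing the data, it was 1638, 916 and 1020 CPM in the 3 lines and 1544 CPM in R1, so A129-6 and A129-17 lay above R1 in one scaling and below it in the other. Depth limits every RS value, since the members had 168 counts there in all.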
